A study of Rattus norvegicus and Mus musculus with 18 samples.

Results

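The kallikreins, the Spink and serpin B inhibitors, the stefins and 3 cystatins were followed in mouse skin wounds. Members were the protein-coding genes whose symbols are Klk or Spink plus digits (Klk1b genes not included), begin with Serpinb or Stfa, or are Cst3, Cst6 or Cstb. They came to 58 of the 49548 genes in the mouse table, with 13 Klk, 12 Spink, 26 Serpinb, 4 Stfa and 3 cystatin genes. Serpinb10 and Serpinb1-ps1 were left out because the annotation calls them pseudogenes.

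RNA came from whole adult mouse tissue, as 3 wound epidermis and 3 wound dermis libraries, all collected 1 day after the scab fell off, a stage that the study's description ties to new hair follicles forming in mice. The labels give no strain, age in weeks, genotype or treatment beyond the wound, and do not tell if each library is from its own animal, so a p-value here reflects only how these libraries vary, which may be technical. Libraries were made by SMART-seq2, which copies polyadenylated RNA into full-length cDNA without keeping track of the strand. Levels are in TPM, a unit that scales each gene's reads by transcript length and sets every library to the same total.

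Kallikreins are secreted serine proteases that activate each other in the outer epidermis and cut the corneodesmosome proteins that hold dead surface cells together, so that these are shed. Spink5 encodes LEKTI, a chain of Kazal domains that inhibits epidermal kallikreins, and its loss causes Netherton syndrome in humans. Clade B serpins are mostly intracellular inhibitors that trap serine or cysteine proteases, while stefins and cystatins block papain-type cysteine proteases such as the lysosomal cathepsins.

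The tissue labels were checked against marker genes. The 10 suprabasal and cornifying keratinocyte markers summed to 46364 to 97919 TPM in wound epidermis and to 428 to 16428 TPM in wound dermis, and the 7 fibroblast markers to 9.79 to 104 TPM in epidermis and 44102 to 68603 TPM in dermis. Wound dermis replicate 2 stood apart. Relative to the epidermis mean, its suprabasal markers had a median level of 21.9%, while those of replicates 1 and 3 had 0.889% and 0.477%. The 7 basal keratinocyte markers stood at medians of 16.2%, 44.8% and 3.43% of the epidermis mean in wound dermis replicates 1, 2 and 3. These medians include Itga6 and Itgb4, which did not separate the tissues (log2 fold changes 0.195 and 0.421, limma adjusted p = 0.484 and 0.414). The other 5 were higher in epidermis. Keratinocyte transcripts were thus listed in all 3 dermis libraries, at unequal levels. In bulk tissue, fewer cells of a type and less RNA per cell cannot be told apart.

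Genes reaching 1 TPM in 3 or more of the 6 libraries were tested with limma on log2(TPM + 1), adjusted by the Benjamini-Hochberg method over 15982 genes at a threshold of 0.05. Of the 58 members 33 passed that filter, and 25 of these were higher and 3 lower in wound epidermis, where 17.0% of all tested genes were higher and 39.3% lower, together 56.3%. By 3 or more on the log2 scale 24 members were higher, against 3.09% of all tested genes. All 3 epidermis libraries lay above all 3 dermis libraries in 26 tested members, against 20.8% of all tested genes, and below them in 3, against 45.3%, so that groups without overlap made up 66.0% of all tested genes. A gene that passes the filter only through the libraries of 1 tissue had to be higher there. On the dermis side this holds for Serpinb9 and Serpinb6b, which are among the 3 lower members. These counts thus describe the 33 tested members and not all 58. The median log2 fold change was 3.92 over the 33 members and -0.42 over all tested genes. Higher genes made up 30.2% of all calls. Scaling by median of ratios raised that share to 47.1% and put the median of all genes at -0.04, and quantile normalization gave 52.8% and 0.08. Under these scalings 27 members were higher in both, and 3 and 2 were lower. Without wound dermis replicate 2, 27 members were higher and 3 lower.

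**Figure D1:**
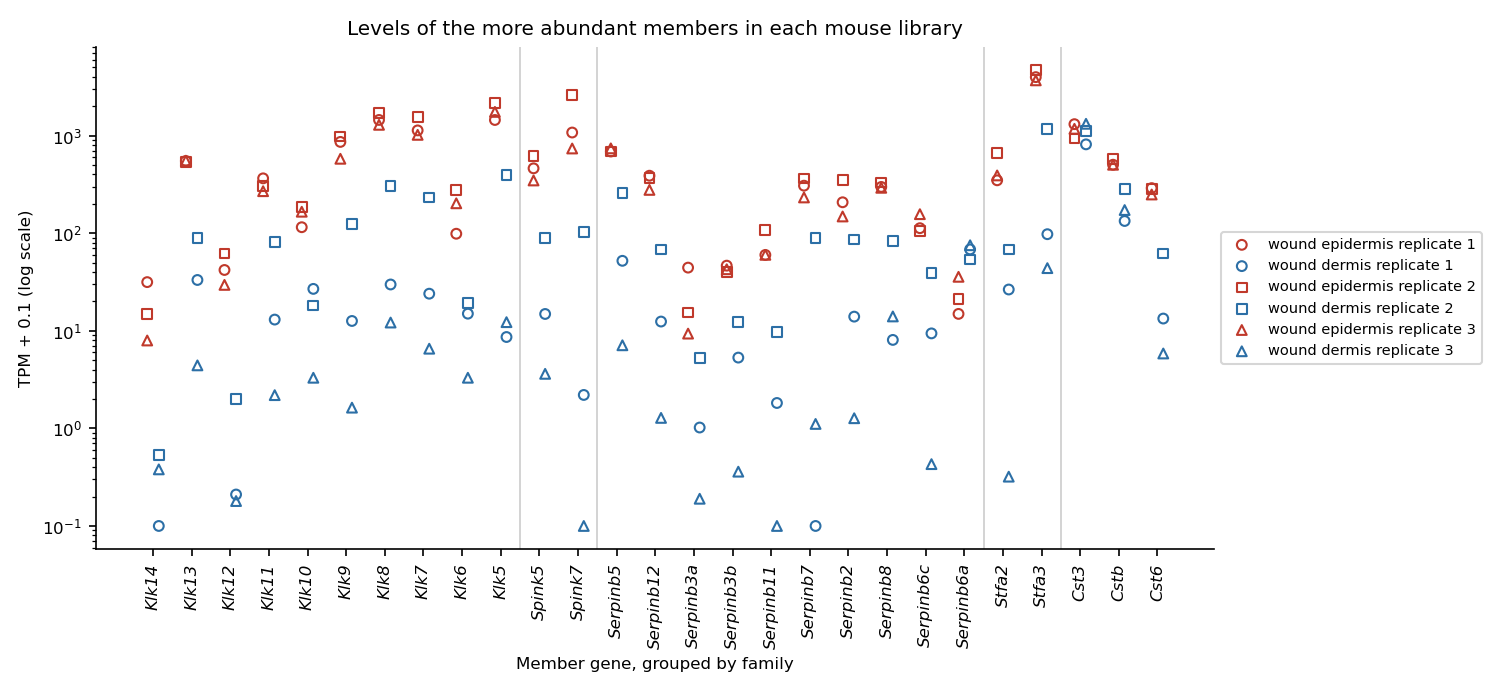
TPM + 0.1 on a log scale for the 27 members that averaged 10 TPM or more in either tissue, with a symbol for each of the 6 libraries, red for wound epidermis and blue for wound dermis. Every epidermis library lies above every dermis library except for Cst3, where they mix, and Serpinb6a, where dermis is higher, and wound dermis replicate 2 is the highest dermis library for most genes.

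Together the 58 genes supplied 1.5% to 2.06% of the transcripts of the wound epidermis libraries and 0.145% to 0.488% of those of wound dermis. In epidermis the Klk genes summed to 6574 ± 1052 TPM (SD, n = 3), against 490 ± 671 TPM for dermis (n = 3). The Stfa genes came next in epidermis at 4594 ± 697 TPM, followed by Serpinb at 2195 ± 196, Spink at 1961 ± 1135 and the 3 cystatin genes at 1939 ± 154 TPM. This order holds only for members picked by symbol. The Stfa sum leaves out BC100530 and BC117090, which share sequence with Stfa1 and averaged 19669 and 2289 TPM in epidermis, and BC100530 alone exceeded the Klk sum. The cystatin genes differed least between the tissues, with 1304 ± 300 TPM in dermis. Stfa3 was the most abundant member in epidermis and ranked 24 among all genes there, followed by Klk5, Klk8, Spink7 and Klk7 at ranks 58, 76, 77 and 100. Of the 26 neighbouring pairs in the order of the 27 members by epidermal mean, 23 had overlapping ranges over the epidermis libraries. Ranges were not compared within each library, so an overlap does not show that neighbours were alike. Serpinb12, for instance, lay above Klk11 in each epidermis library although their ranges overlapped. The pairs that stood apart were Stfa3 above Klk5, Serpinb5 above Klk13 and Serpinb3b above Serpinb6a.

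The kallikrein genes lie side by side on chromosome 7, from Klk14 at 43690418 to Klk1 at 44229618 (mm10). All 10 tested kallikreins, Klk5 to Klk14, were higher in wound epidermis, by 3.55 (Klk10) to 5.60 (Klk9) on the log2 scale. The 3 genes at the far end of the cluster, Klk4, Klk15 and Klk1, lay below the filter in both tissues and did not exceed 0.51 TPM in any library. Kallikreins differ in the residue at the base of the specificity pocket, which decides what peptide bond is cut, and the coding stretches around it are shown for the 6 most abundant kallikreins and Klk14, with the codon of that residue in capitals, followed downstream by the codons around the catalytic serine (GENCODE M21 transcripts, coding strand, 5′ to 3′).
Klk5: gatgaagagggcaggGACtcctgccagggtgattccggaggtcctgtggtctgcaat
Klk8: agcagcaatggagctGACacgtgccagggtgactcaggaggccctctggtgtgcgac
Klk7: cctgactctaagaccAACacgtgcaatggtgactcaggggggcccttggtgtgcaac
Klk9: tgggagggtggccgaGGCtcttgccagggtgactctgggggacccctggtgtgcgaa
Klk13: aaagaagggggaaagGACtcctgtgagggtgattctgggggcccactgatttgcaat
Klk11: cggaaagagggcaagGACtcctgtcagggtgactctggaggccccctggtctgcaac
Klk14: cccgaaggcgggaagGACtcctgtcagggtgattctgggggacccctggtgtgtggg
Klk5, Klk8, Klk13, Klk11 and Klk14 carry an aspartate codon there, the residue of trypsin-like enzymes, Klk7 an asparagine codon and Klk9 a glycine codon. Kallikreins with and without the aspartate codon were thus both among the abundant ones in epidermis.

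Klk5, a trypsin-like enzyme that starts the human kallikrein cascade, stood at 1444, 2168 and 1748 TPM in wound epidermis replicates 1, 2 and 3 and at 8.53, 394 and 12.2 TPM in wound dermis. The groups did not overlap, and the log2 fold change was 5.59 ± 1.30 (SE, limma adjusted p = 0.00905). Klk7, the chymotrypsin-like enzyme that cuts corneodesmosin, stood at 1130, 1544 and 1017 TPM in epidermis and at 23.9, 232 and 6.45 TPM in dermis, higher by 5.11 ± 1.11 (limma adjusted p = 0.00673). In both genes wound dermis replicate 2 was the highest dermis library, at 22% of the epidermis mean for Klk5 and 18.9% for Klk7. Klk8, also called neuropsin, stood at 1445, 1711 and 1288 TPM in epidermis and 29.7, 303 and 12.0 TPM in dermis, higher by 4.89 ± 1.03 (limma adjusted p = 0.00594). Klk8 shares 24.8% of its exon bases with 2310002F09Rik, a transcript on the opposite strand, so reads there cannot be told apart, but that transcript did not exceed 33.1 TPM and was lower in epidermis.

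Klk9 stood at 861, 977 and 578 TPM in epidermis and at 12.5, 124 and 1.53 TPM in dermis (log2 fold change 5.60 ± 1.24, limma adjusted p = 0.00734). Klk13 was the most even gene of the group, at 550, 537 and 553 TPM in the 3 epidermis libraries, a coefficient of variation of 1.56%. It stood at 33.0, 89.1 and 4.32 TPM in dermis (log2 fold change 4.43 ± 0.91, limma adjusted p = 0.00532). Klk11 stood at 364, 303 and 269 TPM in epidermis and 12.9, 80.4 and 2.09 TPM in dermis, higher by 4.36 ± 1.04 (limma adjusted p = 0.0099).

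The other members of the cluster were scarcer. Klk6 stood at 98.6, 279 and 202 TPM in epidermis and 14.9, 19.2 and 3.20 TPM in dermis (log2 fold change 4.01 ± 0.64, limma adjusted p = 0.00188). Klk10 stood at 115, 185 and 166 TPM in epidermis and 26.8, 18.0 and 3.20 TPM in dermis (3.55 ± 0.66, limma adjusted p = 0.00352). Klk10 was the member whose highest dermis library was replicate 1, at 17.2% of the epidermis mean, and in the other 24 members called higher it was replicate 2. Klk12 stood at 41.9, 61.7 and 29.4 TPM in epidermis and 0.11, 1.89 and 0.08 TPM in dermis (4.84 ± 0.45, limma adjusted p = 0.000157). Klk14, an activator of other kallikreins in human skin, was the scarcest tested kallikrein, at 31.4, 14.7 and 7.85 TPM in epidermis and 0, 0.43 and 0.28 TPM in dermis (3.75 ± 0.46, limma adjusted p = 0.000537). Of the 25 members called higher, 9 stood in wound dermis replicate 2 below the 16.4% of its lowest suprabasal marker, 6 of them kallikreins. Klk14 and Klk12 stood there at 2.39% and 4.26% of the epidermis mean, Klk6 and Klk10 at 9.94% and 11.6%, and Klk9 and Klk13 at 15.4% and 16.3%. The others were Spink7 at 6.9%, Serpinb11 at 12.6% and Stfa2 at 14.6%. Klk14 shares 22.6% of its exon bases with 2310002F09Rik on the opposite strand, so its low values are uncertain. All 10 kallikreins kept their call without each library in turn. Their log2 fold changes were 3.83 to 7.30 without wound dermis replicate 2, 2.74 to 4.85 without wound dermis replicate 3, and, for Klk5, 4.61 without wound dermis replicate 1. Klk14 stood at 3.27 without wound epidermis replicate 1.

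**Figure D2:**
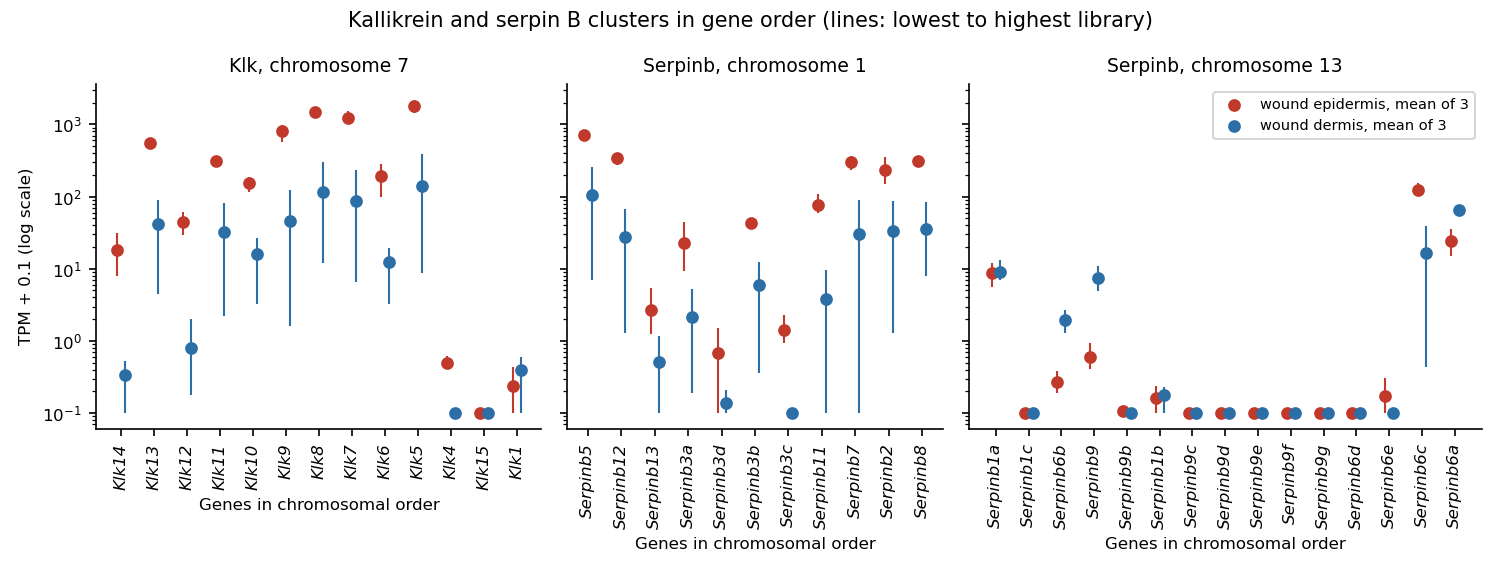
Mean TPM + 0.1 (log scale) of each gene of the Klk cluster on chromosome 7 and of the Serpinb clusters on chromosomes 1 and 13, in chromosomal order, red for wound epidermis and blue for wound dermis, with lines from the lowest to the highest of 3 libraries. Klk14 to Klk5 are higher in epidermis and Klk4, Klk15 and Klk1 are near 0 in both tissues, the chromosome 1 serpins lean to epidermis, and on chromosome 13 Serpinb6c is epidermal while Serpinb6a, Serpinb9 and Serpinb6b are higher in dermis.

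Among the Spink genes, Spink5 and Spink7 were abundant and the rest were scarce. Spink5 stood at 461, 614 and 347 TPM in wound epidermis and 14.8, 89.9 and 3.52 TPM in wound dermis, and the groups did not overlap (log2 fold change 4.63 ± 0.97, SE, limma adjusted p = 0.00574). The ratio of Spink5 to the summed Klk genes was 0.0759, 0.0789 and 0.0592 in the epidermis libraries and 0.0909, 0.0712 and 0.077 in the dermis libraries. This ratio of Spink5 to kallikrein transcripts overlapped between the tissues, although each part of it differed. It does not count Spink7, whose ratio to Spink5 was 2.13 to 4.25 in epidermis and 0 to 1.13 in dermis. The ratio of all inhibitors to kallikreins was therefore not described by it. Spink7, an inhibitor first described in oesophageal epithelium, stood at 1074, 2611 and 737 TPM in epidermis and 2.10, 102 and 0 TPM in dermis, a log2 fold change of 7.54 ± 1.57 that was the largest toward epidermis of all tested genes (limma adjusted p = 0.00556). Spink7 varied more among epidermis libraries than Spink5, with its highest library 3.54 times its lowest against 1.77 times, and it exceeded Spink5 by 2.33, 4.25 and 2.13 times in epidermis replicates 1, 2 and 3. Leaving out wound dermis replicate 2 put Spink5 at 5.78 and Spink7 at 9.50, and leaving out replicate 3 put them at 3.61 and 6.16, and both passed in each of the 6 fits with a library left out.

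Spink10 was the third tested gene of the family, at 2.08, 14.3 and 4.38 TPM in epidermis and 4.76, 4.96 and 4.6 TPM in dermis. Its groups overlapped, and its log2 fold change of 0.13 ± 0.54 did not pass (limma adjusted p = 0.847). The other 9 Spink genes lay below the filter. Spink6, Spink8 and Spink11 were at 0 in all 6 libraries, and Spink1, Spink2, Spink4, Spink12, Spink13 and Spink14 reached at most 3.15 TPM (Spink4 in wound epidermis replicate 3).

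The serpin B genes fall into clusters on chromosome 1, from 106861173 to 107610484, and chromosome 13, from 32842092 to 34002794 (mm10). On chromosome 1, 9 of 11 genes were tested, and 8 of them were higher and 0 lower in wound epidermis. On chromosome 13, 5 of 15 were tested, and 1 was higher and 3 were lower. Among all tested genes 17.0% were higher and 39.3% lower. With only 5 genes tested, the chromosome 13 counts are not read as a trait of that cluster. The chromosome 1 genes summed to 1802 to 2263 TPM in the epidermis libraries and 24.8 to 614 TPM in the dermis libraries. The chromosome 13 genes summed to 133 to 206 TPM in epidermis and 91.2 to 108 TPM in dermis. Clusters were compared by these values, with no test of the difference between them.

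Serpinb5, or maspin, a serpin that does not inhibit proteases, was the most abundant, at 687, 685 and 739 TPM in epidermis and 52.0, 260 and 7.0 TPM in dermis (log2 fold change 3.87 ± 1.10, SE, limma adjusted p = 0.0201). Wound dermis replicate 2 held 37.0% of the epidermis mean of Serpinb5, between the medians of the suprabasal and the basal markers there. Serpinb12 stood at 388, 366 and 277 TPM in epidermis and 12.3, 67.7 and 1.18 TPM in dermis (4.76 ± 1.09, limma adjusted p = 0.00849). Serpinb8 stood at 297, 331 and 292 TPM in epidermis and 7.96, 83.0 and 13.9 TPM in dermis (3.78 ± 0.75, limma adjusted p = 0.0046). Among epidermis libraries Serpinb5, Serpinb12 and Serpinb8 had coefficients of variation of 4.39%, 17% and 6.92%, where the median over all genes called higher with an epidermis mean of 10 TPM or more was 16.2%.

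Serpinb7, whose loss causes Nagashima-type palmoplantar keratosis in humans, stood at 306, 363 and 232 TPM in epidermis and 0, 89.6 and 1.01 TPM in dermis, so that its dermal level came almost wholly from replicate 2 (5.71 ± 1.53, limma adjusted p = 0.0158). Serpinb2, the plasminogen activator inhibitor PAI-2, stood at 207, 353 and 148 TPM in epidermis and 13.9, 85.9 and 1.17 TPM in dermis (3.98 ± 1.19, limma adjusted p = 0.0248). Serpinb2 shares 12.4% of its exon bases with Serpinb10, which is transcribed from the same strand, so reads there could be split between them. Serpinb11 stood at 59.8, 108 and 59.9 TPM in epidermis and 1.72, 9.55 and 0 TPM in dermis (4.59 ± 0.79, limma adjusted p = 0.00248).

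The Serpinb3 genes, relatives of the human squamous cell carcinoma antigens, were low. Serpinb3b stood at 46.4, 40.0 and 42.6 TPM in epidermis and 5.21, 12.2 and 0.26 TPM in dermis (3.23 ± 0.77, limma adjusted p = 0.00984). Serpinb3a stood at 44.3, 15.3 and 9.25 TPM in epidermis and 0.92, 5.19 and 0.09 TPM in dermis (3.06 ± 0.75, limma adjusted p = 0.011). Serpinb3a was the most uneven of the 25 members called higher, since replicate 1 held 4.78 times the level of replicate 3, while Serpinb3b differed by 1.16 times. Serpinb3c and Serpinb3d lay below the filter, with highest values of 2.20 and 1.43 TPM, both in wound epidermis replicate 1. The coding sequences of Serpinb3a and Serpinb3b are 92.9% identical and those of Serpinb3b and Serpinb3c 93.1%, and 10.2% of the 43-base windows of Serpinb3b occur in Serpinb3c, so the split of reads among these genes is uncertain. Serpinb13 stood at 5.29, 1.14 and 1.24 TPM in epidermis and 0, 1.07 and 0.18 TPM in dermis and did not pass (1.21 ± 0.47, limma adjusted p = 0.0631), but passed at 1.52 without wound dermis replicate 2 (limma adjusted p = 0.038).

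On chromosome 13 the neighbouring paralogs Serpinb6c and Serpinb6a went in opposite directions. Serpinb6c stood at 112, 105 and 156 TPM in epidermis and 9.30, 39.3 and 0.33 TPM in dermis (3.92 ± 1.09, SE, limma adjusted p = 0.0186). Serpinb6a stood at 14.8, 20.9 and 35.6 TPM in epidermis and 68.1, 53.8 and 75.1 TPM in dermis, and was lower in epidermis (-1.5 ± 0.33, limma adjusted p = 0.00695). Within libraries Serpinb6c exceeded Serpinb6a by 7.60, 5.04 and 4.39 times in epidermis, and was 0.137, 0.73 and 0.00439 of it in dermis. Their coding sequences are 82.1% identical, and 2.60% of the 43-base windows of Serpinb6c occur in Serpinb6a, so most reads can be assigned. Serpinb6a shares 29.3% of its exon bases with genes on the opposite strand (Nqo2, 1110046J04Rik and Ripk1), each of which was also lower in epidermis, so its value is uncertain to that extent. The codons of the reactive centre loop, the bait that a protease cuts, are shown for these paralogs, for Serpinb9 and for Serpinb8, to set the epidermal and dermal genes side by side. The capitals mark the first codons of the loop's hinge, which is alike among inhibitory serpins. The lower-case letters begin with codons that are also much alike here and go on into the variable part (GENCODE M21 transcripts, coding strand, 5′ to 3′).
Serpinb6c: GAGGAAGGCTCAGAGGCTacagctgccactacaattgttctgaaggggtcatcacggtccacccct
Serpinb6a: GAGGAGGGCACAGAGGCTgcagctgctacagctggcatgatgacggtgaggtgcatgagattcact
Serpinb6b: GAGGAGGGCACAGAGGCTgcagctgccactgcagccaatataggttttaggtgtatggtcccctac
Serpinb9: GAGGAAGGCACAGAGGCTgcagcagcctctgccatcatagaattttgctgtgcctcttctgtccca
Serpinb8: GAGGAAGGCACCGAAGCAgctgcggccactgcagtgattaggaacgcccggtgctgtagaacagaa

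Serpinb9, which protects immune cells from their own granzyme B, stood at 0.37, 0.31 and 0.84 TPM in epidermis and 4.82, 6.63 and 10.7 TPM in dermis (-2.43 ± 0.30, limma adjusted p = 0.000572). Serpinb6b stood at 0.09, 0.13 and 0.28 TPM in epidermis and 1.83, 1.19 and 2.61 TPM in dermis (-1.28 ± 0.22, limma adjusted p = 0.00262), and under quantile normalization it did not pass (-0.41, limma adjusted p = 0.231). Levels this close to 1 TPM make these fold changes smaller on the log2(TPM + 1) scale than on that of TPM. Serpinb9 and Serpinb6b passed the filter through their dermis libraries alone, so their direction was fixed by it. The 6 macrophage markers summed to 54.4 to 74.9 TPM in epidermis and 520 to 893 TPM in dermis, moving the same way as these 3 serpins. All 7 fibroblast, 5 mast cell and 4 endothelial markers were lower in epidermis as well. The part of any of these cell types in the result was not tested. Serpinb1a, an inhibitor of neutrophil serine proteases, stood at 5.50, 8.35 and 12.1 TPM in epidermis and 7.20, 6.92 and 12.9 TPM in dermis, with overlapping groups (-0.06 ± 0.34, limma adjusted p = 0.888). The remaining 10 genes of the chromosome 13 cluster lay below the filter, of which Serpinb1c, Serpinb6d and Serpinb9c to Serpinb9g were at 0 in all 6 libraries and Serpinb1b, Serpinb6e and Serpinb9b reached at most 0.21 TPM.

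Of the 9 serpin B genes called higher, 5 passed without wound dermis replicate 1. Serpinb5 no longer passed when wound epidermis replicate 1 or 2 or wound dermis replicate 1 was left out (limma adjusted p = 0.0508, 0.0565 and 0.0577), nor did Serpinb2 when any of these was (limma adjusted p = 0.0584, 0.0809 and 0.0689). Serpinb7 did not pass without wound epidermis replicate 2 or wound dermis replicate 1 or 3 (limma adjusted p = 0.0519, 0.053 and 0.0575), nor Serpinb6c without wound epidermis replicate 3 or wound dermis replicate 1 (limma adjusted p = 0.0513 and 0.0501). All 9 passed without wound dermis replicate 2, at 3.76 to 7.71 on the log2 scale. Without wound dermis replicate 3 they stood at 2.28 to 4.96, and Serpinb7 and Serpinb8 stood at 4.46 and 3.12 without wound dermis replicate 1. Serpinb3a stood at 2.46 without wound epidermis replicate 1.

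The stefins bind cysteine proteases through a short conserved loop, and mouse stefin A genes are known in both keratinocytes and neutrophils. The coding stretch around that loop is shown for the stefins and cystatins, with the loop codons in capitals, because Stfa2 and Stfa2l1 carry the same loop codons while their listed levels differ widely (GENCODE M21 transcripts, coding strand, 5′ to 3′).
Stfa3: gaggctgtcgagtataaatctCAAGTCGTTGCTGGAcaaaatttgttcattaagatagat
Stfa2: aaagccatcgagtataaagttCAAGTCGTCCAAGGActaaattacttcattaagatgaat
Stfa2l1: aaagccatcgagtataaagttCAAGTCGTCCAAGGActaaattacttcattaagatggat
Stfa1: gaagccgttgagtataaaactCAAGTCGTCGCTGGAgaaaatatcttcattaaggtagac
Cstb: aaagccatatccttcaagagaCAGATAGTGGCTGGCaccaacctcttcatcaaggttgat
Cst6: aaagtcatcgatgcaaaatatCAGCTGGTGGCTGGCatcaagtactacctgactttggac
Cst3: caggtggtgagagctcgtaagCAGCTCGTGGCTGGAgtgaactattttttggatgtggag

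Stfa3, on chromosome 16 from 36450537 to 36455392, stood at 3970, 4718 and 3679 TPM in wound epidermis and 97.5, 1168 and 43.7 TPM in wound dermis (log2 fold change 4.57 ± 1.08, SE, limma adjusted p = 0.00954). It made up 89.7% of the summed level of the 4 Stfa members in epidermis, and 0 of its 43-base windows occur in another gene. That sum leaves out BC100530 and BC117090, which share windows with Stfa1 and averaged 19669 and 2289 TPM in epidermis. Stfa2 stood at 348, 664 and 390 TPM in epidermis and 26.4, 68.1 and 0.22 TPM in dermis (5.09 ± 1.35, limma adjusted p = 0.0151). Its coding sequence is 96.4% identical to that of Stfa2l1, and 17.7% of its windows occur there. Stfa2l1 lay below the filter, at no more than 0.89 TPM, and the division of reads between these genes is uncertain. Without wound dermis replicate 2 Stfa3 and Stfa2 stood at 5.95 and 6.28, and without wound dermis replicate 3 at 3.59 and 3.37. Without wound epidermis replicate 2 Stfa2 missed the threshold (4.81, limma adjusted p = 0.0533).

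Stfa1 stood at 4.04, 2.78 and 3.83 TPM in epidermis and 0.43, 3.11 and 0 TPM in dermis, and did not pass (1.32 ± 0.50, limma adjusted p = 0.0549), but passed without wound dermis replicate 2 (1.92, limma adjusted p = 0.00108). Of its 43-base windows, 25.1% also occur in BC100530 and 13% in BC117090, which were looked up after the values were seen. BC100530 stood at 19030, 20968 and 19011 TPM in epidermis, so even a small share of its reads would exceed the listed level of Stfa1. Of the 10 neutrophil markers 2 were tested, and they went in opposite directions. Csf3r, the receptor for granulocyte colony-stimulating factor, stood at 0.14, 0.05 and 0.03 TPM in epidermis and 8.69, 5.49 and 11.5 TPM in dermis and was lower in epidermis (-3.10 ± 0.27, limma adjusted p = 0.000105). The chemokine receptor Cxcr2 was higher in epidermis (1.30 ± 0.19, limma adjusted p = 0.00139). Mpo and Mmp8 lay below the filter but were higher in every dermis library than in any epidermis library, with at most 2.15 and 4.95 TPM. Ly6g and Elane were at 0 in all 6 libraries, Camp and Ngp stayed under 1 TPM, and Ltf and Retnlg reached at most 1.25 and 2.06 TPM. The whole list summed to 27.4 to 32.0 TPM in epidermis and 19.2 to 32.8 TPM in dermis, and Cxcr2 alone gave 26.98 to 31.90 TPM of that in epidermis.

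The 3 cystatin genes differed in how far they separated the tissues. Cst6, or cystatin M/E, an inhibitor of legumain and cathepsins in the cornified layer, stood at 289, 284 and 249 TPM in epidermis and 13.2, 61.7 and 5.75 TPM in dermis (3.91 ± 0.73, limma adjusted p = 0.00349). Cstb, or stefin B, a cytoplasmic inhibitor of most cell types, stood at 502, 579 and 502 TPM in epidermis and 133, 281 and 172 TPM in dermis (1.49 ± 0.30, limma adjusted p = 0.00462). Its dermis libraries held 25.2%, 53.3% and 32.7% of the epidermis mean, the highest shares of any member called higher in replicates 1, 2 and 3 alike. Cst3, or cystatin C, a secreted inhibitor of nearly all tissues, stood at 1309, 931 and 1172 TPM in epidermis and 813, 1113 and 1320 TPM in dermis, with overlapping groups (0.09 ± 0.27, limma adjusted p = 0.801). Cst6 stood at 4.81 without wound dermis replicate 2 and 3.20 without wound dermis replicate 3.

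**Figure D3:**
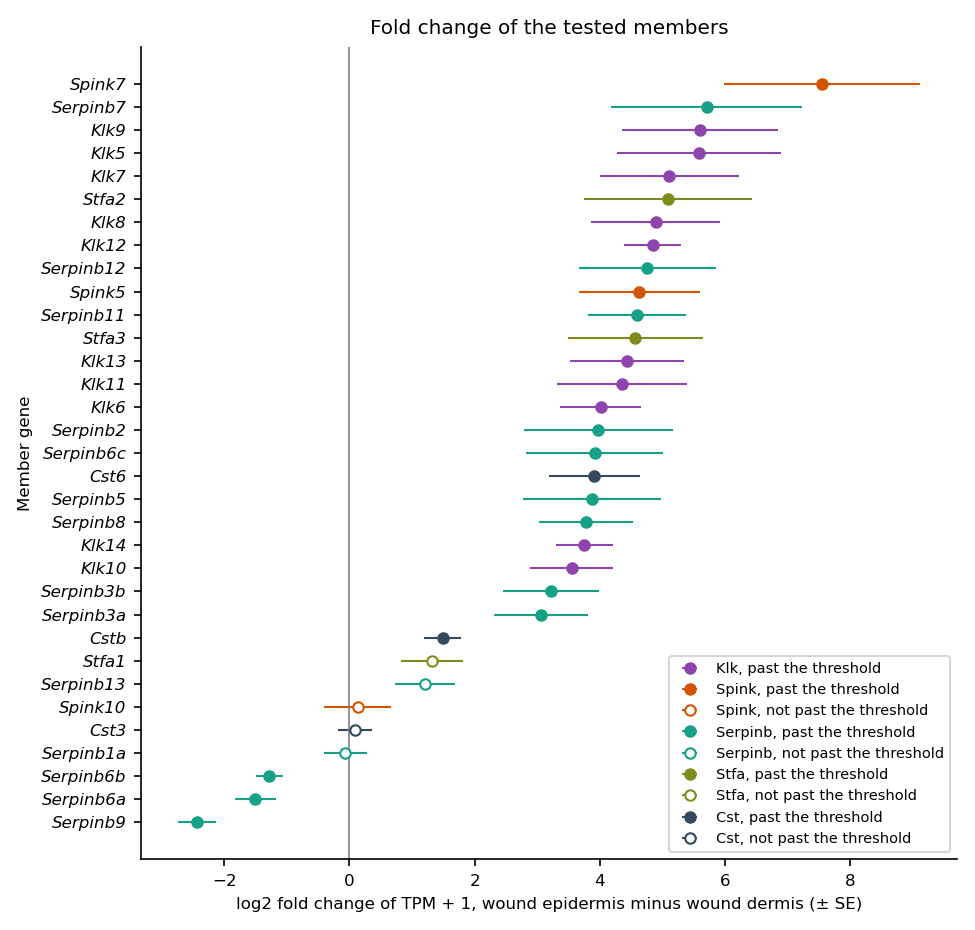
Log2 fold change of TPM + 1 (wound epidermis minus wound dermis, with bars of 1 SE) for the 33 tested members, coloured by family, filled where the limma adjusted p was under 0.05. Values run from -2.43 for Serpinb9 to 7.54 for Spink7, and the 3 genes below 0 that are filled are all serpins of chromosome 13. Of these, Serpinb9 and Serpinb6b passed the filter through dermis alone.

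The levels of the 25 members called higher were compared across the dermis libraries. As shares of the epidermis mean, their medians were 3.59%, 20.4% and 0.669% in wound dermis replicates 1, 2 and 3, beside 0.889%, 21.9% and 0.477% for the suprabasal markers and 16.2%, 44.8% and 3.43% for the basal ones. By family, the medians in replicate 2 were 15.9% for the 10 Klk genes and 28.4% for the 9 Serpinb genes. Replicate 2 was the highest dermis library for 24 of 25 members and replicate 3 the lowest for 20 of 25. How far keratinocyte RNA in the dermis libraries sets the dermal levels of these genes was not tested.

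**Figure D4:**
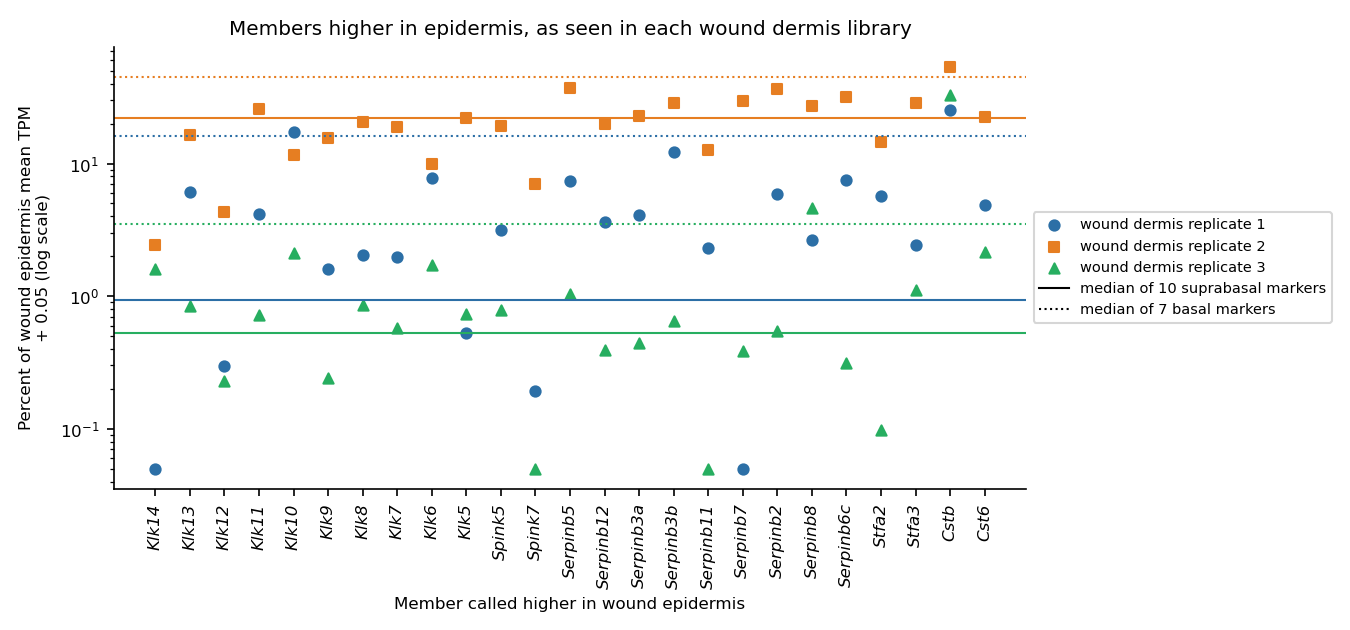
Level of each of the 25 members called higher in each wound dermis library, as a percent of the wound epidermis mean (plus 0.05, log scale), with lines for the medians of 10 suprabasal markers (solid) and 7 basal markers (dotted) in the same library's colour. Replicate 2 is highest for 24 of the 25, and Cstb lies above all other members in each dermis library.

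Among the epidermis libraries, replicate 2 held the highest level for 16 of the 25 members and replicate 3 the lowest for 16. Of the 2011 genes called higher with an epidermis mean of at least 10 TPM, 787 were highest in replicate 2 and 848 lowest in replicate 3. Part of this order was thus shared by genes higher in epidermis at large. The suprabasal markers were ordered likewise, highest in replicate 2 for 9 of 10 and lowest in replicate 3 for 9. The basal markers were lowest in replicate 2 for all 7. The median coefficient of variation over epidermis libraries was 22.2% for the 25 members, 37.9% for the suprabasal markers and 43.2% for the basal markers, and 16.2% for all 2011 genes that were called higher and had an epidermis mean of at least 10 TPM.

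The genes that act with these members were read from the same fit. Of 13 other proteases of the epidermis 12 were higher and 1 lower in wound epidermis, with a median log2 fold change of 3.76. Among all tested genes 17.0% were higher and 39.3% lower. Asprv1, the retroviral-like protease that processes profilaggrin in mouse skin, was higher by 5.88 ± 1.35 (SE, limma adjusted p = 0.00843), Casp14, the caspase of cornification, by 5.33 and the membrane serine protease Tmprss13 by 4.85. Prss8, the membrane-anchored protease prostasin, was higher by 4.42 ± 0.97 (limma adjusted p = 0.00695), with libraries at 91.0, 69.8 and 78.2 TPM in epidermis and 0.93, 20.4 and 0.27 TPM in dermis, and its partner St14, or matriptase, an activator of kallikreins in mouse skin, by 2.50 ± 0.45 (limma adjusted p = 0.0031). Hpn, or hepsin, was the gene that was lower, at -1.33 and with at most 2.65 TPM in any library. St14 and Hpn were named after their values were seen.

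Of 9 tested desquamation substrates and receptors 7 were higher and 1 lower, against 17.0% and 39.3% of all tested genes, with a median of 4.24. Lor and Flg, which encode the cornified envelope protein loricrin and profilaggrin and are also among the suprabasal markers, were higher by 6.21 ± 1.55 (limma adjusted p = 0.0119) and 5.95 ± 1.43 (limma adjusted p = 0.0101). Cdsn, the corneodesmosin that Klk5 and Klk7 cut, stood at 1469, 1715 and 1314 TPM in epidermis and 20.0, 254 and 3.44 TPM in dermis (5.70 ± 1.29, limma adjusted p = 0.00791). Dsg1a and Dsc1, cadherins of the corneodesmosome, were higher by 4.24 and 3.35. F2rl1, a receptor that kallikreins cleave in human keratinocytes, stayed at 0.49 to 1.78 TPM in the 6 libraries and did not pass (0.26 ± 0.25, limma adjusted p = 0.411), while the related thrombin receptor F2r was lower (-5.15 ± 0.30, limma adjusted p = 2.21e-05).

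Stefins and cystatins inhibit cysteine proteases. Of 11 such proteases 7 were lower in wound epidermis, 0 higher, and 4 did not pass, with a median of -2.46, where 39.3% of all tested genes were lower. Ctsk, the collagen-degrading cathepsin K, stood at 0.53, 0.09 and 0.81 TPM in epidermis and 194, 127 and 224 TPM in dermis (-6.94 ± 0.30, limma adjusted p = 1.07e-05). Lgmn, the legumain that Cst6 inhibits, stood at 16, 7.57 and 17.4 TPM in epidermis and 342, 321 and 409 TPM in dermis (-4.68 ± 0.32, limma adjusted p = 3.68e-05), and Ctsz stood at -4.68 and Ctss at -3.82. Ctsl, Ctsh and Ctsc, at 85.2 to 261 TPM in all 6 libraries, did not pass (-0.12, -0.08 and -0.28). The macrophage markers named above and the fibroblast markers were also lower in epidermis, and their part in the lower cathepsins was not tested. Under quantile normalization 1 of the 11 was higher.

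Of the 7 serine proteases that clade B serpins inhibit, 3 were tested and 2 were lower, where 39.3% of all tested genes were lower. Plau, the urokinase that Serpinb2 inhibits, stood at 46.7, 42.3 and 35.7 TPM in epidermis and 89.1, 36.0 and 21.1 TPM in dermis (0.01 ± 0.48, limma adjusted p = 0.984), while Plat, its tissue-type counterpart, stood at 9.46, 16.6 and 11.4 TPM in epidermis and 113, 87.3 and 115 TPM in dermis and was lower (-3.003 ± 0.25, limma adjusted p = 9.78e-05). The mast cell chymase Cma1 stood at -7.05. Elane was at 0 in all libraries, and Ctsg, Prtn3 and Gzmb did not exceed 3.51 TPM.

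Other inhibitors were read as separate lists. Of 8 other epidermal inhibitors 7 were tested and all 7 were higher, with a median of 4.34, where 17.0% of all tested genes were higher. The largest changes were those of Serpina12, or vaspin, itself a serpin of another clade, at 5.91 ± 1.38 (limma adjusted p = 0.00898), Wfdc21 at 5.34 and Wfdc12 at 5.32. A2ml1, the gene not tested, did not exceed 0.10 TPM. The list of serpins of other clades did not hold Serpina12. Of its 9 tested genes 0 were higher and 7 lower, with a median of -5.69, where 39.3% of all tested genes were lower. Serpinf1, the pigment epithelium-derived factor, stood at 3.20, 0.63 and 4.66 TPM in epidermis and 793, 721 and 1346 TPM in dermis (-8.08 ± 0.48, limma adjusted p = 2.32e-05), and Serping1, the complement C1 inhibitor, and Serpinh1, the collagen chaperone, at -6.98 and -6.61.

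**Figure D5:**
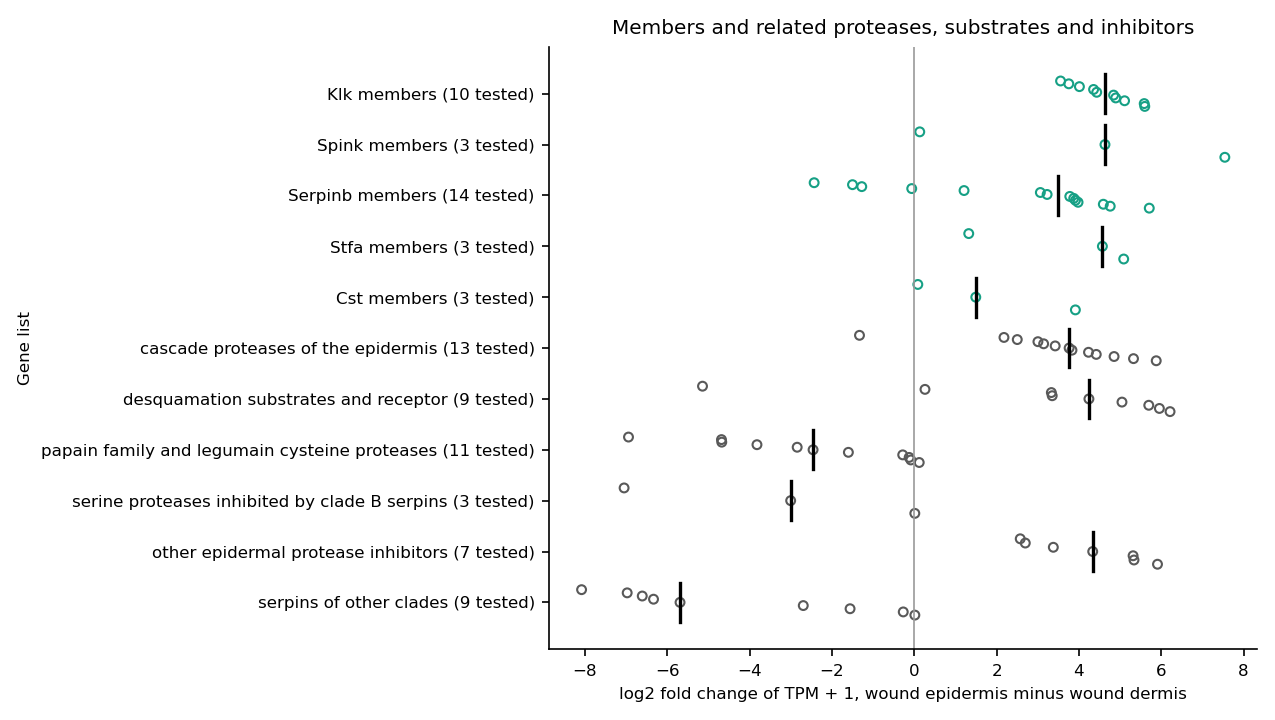
Log2 fold change of TPM + 1 (wound epidermis minus wound dermis) of each tested member, by family (green), and of each tested gene of the related lists (grey), with a bar at each list's median. The Klk genes and the 7 other epidermal inhibitors, Serpina12 among them, lie above 0, and the Serpinb genes spread from -2.43 to 5.71. The cysteine proteases and the listed serpins of other clades lie mostly below 0.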

How the data were processed

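The authors deposited TPM values per gene and library. Bowtie 1.0.0, RSEM 1.2.31 and the build mm10 are named per the submitters' processing notes, and the sources used here give neither annotation nor settings. Per the labels' protocols, libraries began from 10 ng or 100 ng of RNA and were read single-end at 86 or 43 bases, with no record of which. TPM gives every library the same total, so depth is unknown, no counting interval is given, and abundant genes shift all others. Of 49548 identifiers 49289 matched a GENCODE M21 symbol. No mouse promoter or protein sequences were used here, and printed stretches are coding sequence.

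The test was limma 3.58.1 with its mean-variance trend and no covariates (R 4.3.3), applied to log2(TPM + 1) of genes that reached 1 TPM in 3 or more libraries. A fold change on this scale understates that of genes near 1 TPM. The 27 members averaging 10 TPM or more in either tissue are given per library by rule, and the 6 other tested members likewise, chosen after their values were seen. Of each related list up to 4 genes with the largest changes, plus targets of members, were named. The members and lists were chosen with earlier results of these data known. Sequence shared with other genes was counted as windows of 43 bases found in any other GENCODE M21 transcript, on either strand. Simulated data held 15982 genes, of which 200 were altered. A log2 change of 2 was recovered for 53% of the genes altered by it and a log2 change of 1 for 2%. In that simulation 4 unaltered genes were called. In the real comparison 56.3% of genes were called, far more than were altered in the simulation, so these rates do not give its sensitivity. Alternatives were pseudocounts of 0.1 and 5 TPM, no filter, a filter of 5 TPM, median-of-ratios scaling, quantile normalization, no trend, the replicate number as a block, and each library left out with the tested genes held fixed. The rat libraries were not used here.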

Additional observations from a re-analysis of the deposited data

How the results depend on the processing

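Over 33 tested members and 14 alternatives, 427 of 457 values kept their direction and their side of the threshold, 15 lost the call, 7 gained it and 8 changed sign. Those that changed sign were never called. Serpinb1a stood at 0.36 under median-of-ratios scaling and 0.54 under quantile normalization, and at -0.31 to 0.20 with a library left out. Cst3 stood at -0.40 under quantile normalization and at -0.11 to 0.24 with a library left out, and Spink10 at -0.50 to 0.65. A filter of 5 TPM left 1 member lower, a serpin B, against 3, because fewer genes were tested, and 0 of the other epidermal proteases lower, as did quantile normalization, which also put 1 cysteine protease higher. Genes higher in epidermis numbered 4333 under median-of-ratios scaling and 4694 under quantile normalization, against 2721; the cause was not tested. With a library left out, 5 to 10 serpin B genes and 1 to 3 Stfa genes were higher. Without the filter Serpinb5 and Serpinb2 missed the threshold (limma adjusted p = 0.0514 and 0.0609) and Klk4 and Serpinb3c passed, at 0.47 and 1.17. With pseudocounts of 0.1 and 5 TPM the 25 higher members stood at 1.499 to 8.82 and 1.47 to 6.36. With the replicate block 25 members were higher and 3 lower, as without it, and 2464 genes were higher and 5940 lower. The deviations of same-numbered libraries correlated at -0.135, 0.086 and 0.189. Of the epidermis libraries 1 of 3 correlated best with its own number, and of the dermis libraries 2 of 3. These values do not settle if the numbers mark pairs, and the main fit did not take them as such. Depth is unknown, and values under about 1 TPM cannot be told from 0.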

Other observations

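Serpinb10, annotated as a polymorphic pseudogene and for that reason not a member, was looked up after its values were seen. It stood at 15.3, 10.2 and 22.1 TPM in wound epidermis and 0.74, 7.61 and 1.02 TPM in wound dermis, and was higher by 2.37 ± 0.62 in epidermis (SE, limma adjusted p = 0.0145). It lies beside Serpinb2 on chromosome 1 and shares exon bases with it.

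BC100530 and BC117090, which share sequence windows with Stfa1, were looked up after the values were seen. BC100530 averaged 19669 TPM in wound epidermis, above Stfa3 at 4122 TPM, while BC117090 averaged 2289 TPM, below Stfa3. BC100530 stood at 1035, 4401 and 151 TPM in wound dermis, and was higher in epidermis by 4.47 ± 1.08 (limma adjusted p = 0.0103). BC117090 stood at 2346, 2519 and 2001 TPM in epidermis and 98.2, 539 and 10.2 TPM in dermis, higher by 4.76 ± 1.23 (limma adjusted p = 0.0137).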
